A study of Rattus norvegicus with 20 samples.

Results

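The genes described here are Slc6a6, Cdo1, Csad, Baat and Slc27a5, which together supply taurine to the rat hepatocyte and join it to bile acids. They were taken by name, and every probe set annotated to them was used, which gave 6 of the 31042 non-control probe sets on the array: 2 for Slc6a6 (1374531_at and 1368778_at) and 1 each for Cdo1 (1367755_at), Csad (1398286_at), Baat (1387508_at) and Slc27a5 (1387325_at). Slc6a6 was chosen on its measured fall at 994.6 mg/kg against control, so its differences from control are given as a description, without a p-value, and nothing is read from its place in a count of calls against control. The other 4 genes were chosen for their place in the pathway, although earlier results of these data were known when they were named.

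Livers came from male Harlan Sprague Dawley rats that received tricresyl phosphate (TCP), an organophosphate ester used as a plasticiser and flame retardant, in corn oil by oral gavage once a day for 4 consecutive days and were killed on day 5. The 5 control rats received corn oil alone. The other 5 groups, of 3 rats each, received 62.3 mg/kg per day (0.169 mmol/kg), 124.5 mg/kg (0.338 mmol/kg), 248.6 mg/kg (0.675 mmol/kg), 497.3 mg/kg (1.35 mmol/kg) or 994.6 mg/kg (2.7 mmol/kg). Each of the 20 arrays measured RNA from pieces of the left liver lobe of 1 rat, and expression is given as log2 values after robust multi-array averaging (RMA), so a difference of 1 is a doubling. In a bulk liver sample, fewer cells of a type and less RNA per cell cannot be told apart. Where the ranges of treated rats and controls are compared, the share of all probe sets that separate in the same way was not counted. Errors beside group means are standard deviations over rats, and errors beside differences and slopes are standard errors from limma fitted over all 31042 probe sets.

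Taurine is a sulfur-containing amino acid that the liver both makes and takes up. CDO1 oxidises cysteine to cysteine sulfinate, CSAD decarboxylates the sulfinate to hypotaurine, and SLC6A6, the sodium- and chloride-dependent taurine transporter TauT, carries taurine in from the blood. Bile acids are first activated to their coenzyme A thioesters, a step for which SLC27A5 (bile acyl-CoA synthetase) handles acids returning from the gut, and BAAT then transfers them to taurine or glycine, which makes the bile salts that are secreted into bile. Taurine is also an organic osmolyte, and transcription of Slc6a6 is known to be raised in hypertonic medium through the transcription factor NFAT5, which binds tonicity-responsive elements.

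Promoters from the RefSeq table for build GRCr8, 250 bases before to 50 bases after each start, matched 4 of the 5 genes (Slc6a6, Csad, Baat and Slc27a5, but not Cdo1), and short stretches of the Slc6a6 and Baat promoters are printed because Slc6a6 is the gene whose level moved and because both promoters hold a TGGAAA, the core of a tonicity-responsive element. Capitals mark motif matches on either strand. The first Slc6a6 stretch is chr4:125752252-125752339 on the plus strand and holds 3 copies of the GC box core GGGCGG, read here as its reverse complement. The next is chr4:125752334-125752363, with TGGAAA in reverse complement, and the last is chr4:125752402-125752431, with the nuclear receptor core AGGTCA and the TATA box letters TATAAA. The first stretch ends just before the outermost annotated start of Slc6a6. The motifs marked in the middle and last stretches therefore lie inside the annotated gene, although before the start that the promoter window is set on. The Baat stretch is chr5:68656270-68656299, printed along the minus strand, on which the gene lies.
Slc6a6, first stretch: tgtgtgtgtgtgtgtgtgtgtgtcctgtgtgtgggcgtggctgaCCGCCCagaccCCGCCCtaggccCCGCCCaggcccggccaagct
Slc6a6, middle stretch: caagctggtattTTTCCAcccagcaggatg
Slc6a6, last stretch: cgAGGTCAgggagaagccgctTATAAAtta
Baat: tttgttagggctTTTCCAcactggcagctc

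The motifs were searched on both strands of these windows, and no match overlapped one of another motif. The Slc6a6 promoter held 1 TGGAAA, 1 AGGTCA, 3 GGGCGG, 1 TATAAA and 1 CCAAT, the CCAAT lying after the start at offset 19. Baat held 1 TGGAAA and no other motif of those searched, Csad held 1 GGGCGG and no other, and Slc27a5 held none. Among all 33469 promoters of that length, TGGAAA was present in 22.7%, AGGTCA in 16.2%, GGGCGG in 33.1%, TATAAA in 14.2% and CCAAT in 37.5%, so each match is of a common kind. No factor's binding was measured in these rats, and the matches describe letters in the sequence only.

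Slc6a6, the taurine transporter chosen on its fall at the top dose, is described over the 6 dose groups first. On probe set 1374531_at the 5 controls read 10.31, 10.02, 10.16, 10.39 and 10.55, a mean of 10.28 ± 0.20 (SD, n = 5). At 62.3 mg/kg the values were 9.88, 9.90 and 10.08 (9.95 ± 0.11, n = 3), and at 124.5 mg/kg they were 9.55, 9.26 and 9.37 (9.39 ± 0.15). From 124.5 mg/kg upward every treated rat lay below every control. At 248.6 mg/kg the rats read 9.43, 9.55 and 9.75 (9.58 ± 0.16), at 497.3 mg/kg they read 8.60, 8.89 and 8.75 (8.75 ± 0.14), and at 994.6 mg/kg they read 8.02, 8.30 and 7.77 (8.03 ± 0.27). The groups stepped down in order of dose except that 248.6 mg/kg stood above 124.5 mg/kg.

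Relative to control, the 1374531_at differences were -0.33, -0.89, -0.71, -1.53 and -2.25 (each ± 0.13, SE) from the lowest to the highest dose. The mean at 994.6 mg/kg was 21.0% of the control level, a 4.77-fold difference, and at 497.3 mg/kg it was 34.5% of control. Ordered by their log2 difference at 994.6 mg/kg, only 3 probe sets of the 31042 were lower than this one. Slc6a6 was chosen on that difference, so this place is no test of it. As shares of the difference seen at the highest dose, the 4 lower doses gave 14.7%, 39.6%, 31.3% and 68.1%, and the drop from 248.6 to 497.3 mg/kg was larger than the whole difference between control and 248.6 mg/kg. In the order of levels, control and 62.3 mg/kg overlapped in range, as did 248.6 and 124.5 mg/kg, while 62.3 and 248.6, 124.5 and 497.3, and 497.3 and 994.6 mg/kg did not.

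The second probe set, 1368778_at, was noisier. Its controls read 7.70, 7.29, 6.67, 7.64 and 8.11 (7.48 ± 0.54, n = 5). The rats at 62.3 mg/kg read 7.50, 6.15 and 6.49 (6.71 ± 0.70), those at 124.5 mg/kg 6.70, 6.52 and 6.38 (6.54 ± 0.16), and those at 248.6 mg/kg 6.27, 6.44 and 7.49 (6.73 ± 0.66). In each of these 3 groups 2 of 3 rats lay below every control and 1 did not. At 497.3 mg/kg the values were 5.78, 5.48 and 5.62 (5.63 ± 0.15), and at 994.6 mg/kg they were 6.29, 5.68 and 5.61 (5.86 ± 0.38), so that all 6 rats of the 2 highest doses were below the controls.

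On this probe set the differences from control were -0.77, -0.95, -0.75, -1.85 and -1.62 (each ± 0.31, SE), and the lowest mean was at 497.3 mg/kg, not at the highest dose. It stood at place 19 of 31042 by its difference at 994.6 mg/kg, the difference on which the gene was chosen. The only gap between neighbours in the order of levels lay between 124.5 and 994.6 mg/kg, and 994.6 and 497.3 mg/kg overlapped. Both probe sets thus gave the same direction at all 5 doses, and they differed on whether the level fell further from 497.3 to 994.6 mg/kg, with -0.72 on 1374531_at and 0.23 on 1368778_at. Over the 20 arrays the 2 probe sets had a Pearson r of 0.80 and a Spearman rho of 0.82, and after subtracting group means r was 0.39 and rho 0.45, which is a description of 1 gene read by 2 probe sets from the same RNA. Which stretch of the transcript each probe set reads was not determined here.

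**Figure D1:**
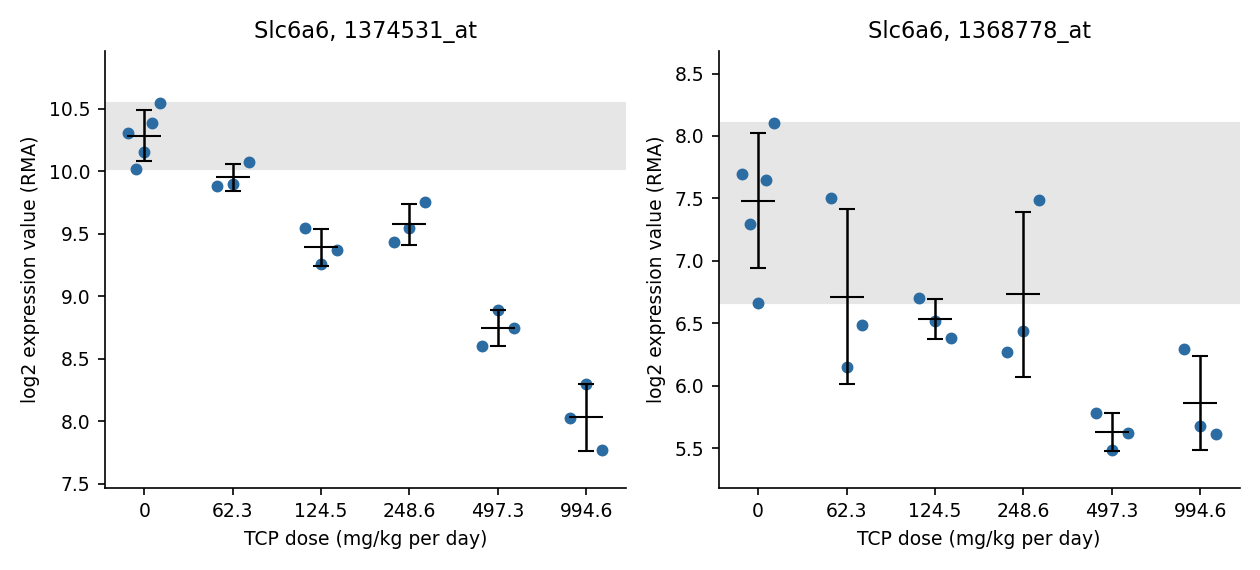
Log2 RMA values of the 2 Slc6a6 probe sets (y axis) against TCP dose in mg/kg per day (x axis, one step per dose group), with 1 point per rat, group mean and SD as bars, and the control range shaded. On 1374531_at all rats from 124.5 mg/kg upward lie below the shaded range, and on 1368778_at this holds only at 497.3 and 994.6 mg/kg.

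The slope over the 12 rats given 62.3 to 497.3 mg/kg leaves out the control and 994.6 mg/kg arrays by which Slc6a6 was chosen. Earlier results of these data were known when the genes were named, and which arrays RMA normalized jointly is not stated. Full independence of the slope from that choice was therefore not shown. On 1374531_at the log2 level changed by -0.34 ± 0.06 per dose step (SE, 95% interval -0.47 to -0.22), with an adjusted p of 0.173 in limma after Benjamini-Hochberg adjustment over all probe sets. On 1368778_at the slope was -0.31 ± 0.12 (interval -0.56 to -0.06), with an adjusted p of 0.783. Neither passed the threshold of 0.05, and 2 of the 31042 probe sets (0.00644%) did, both higher with dose. Leaving out 1 rat in turn, the 1374531_at slope ran from -0.36 to -0.30 with adjusted p from 0.0342 to 0.639, and it passed only without replicate 3 of the 248.6 mg/kg group. Taken as a contrast of group means over all 20 arrays the slope was again -0.34 with an adjusted p of 0.00717, but that fit takes its spread in part from the control and 994.6 mg/kg arrays.

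Between neighbouring doses on 1374531_at, the step from 62.3 to 124.5 mg/kg was -0.56 ± 0.14, that from 124.5 to 248.6 mg/kg was 0.19 ± 0.14 and that from 248.6 to 497.3 mg/kg was -0.83 ± 0.14. The last of these had an adjusted p of 0.203 in limma, and none of the 31042 probe sets passed in any of these 3 comparisons (0% each), and the rats at 124.5 and 248.6 mg/kg overlapped in range. On 1368778_at the same steps were -0.18, 0.20 and -1.10 (each ± 0.35).

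Counting probe sets with an adjusted p under 0.05 against control, none of the 6 was called at 62.3 mg/kg, where no probe set on the array was (0%). At 124.5 mg/kg 1 of the 6 was called, Slc6a6 1374531_at, and it was the only probe set called on the whole array (0.00322%). At 248.6 mg/kg none of the 6 was called, against 9 probe sets overall (0.029%). At 497.3 mg/kg both Slc6a6 probe sets and none of the other 4 were called, against 97 overall (0.312%), and at 994.6 mg/kg the count was again both Slc6a6 probe sets and none of the other 4, against 807 overall (2.6%). Because Slc6a6 was picked for its level at the top dose, and all doses share the same controls, its calls are no test of it, and what these counts describe is the other 4 genes, none of which was called at any dose.

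The count at 124.5 mg/kg was 0 in 7 of the 8 fits that left out 1 rat of that comparison, namely every one except that without control replicate 2, while the 1374531_at difference ran from -0.97 to -0.82 over those 8 fits.

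Neither enzyme of the route from cysteine to taurine had a difference past the threshold at any dose. Cdo1, which starts taurine synthesis from cysteine, read 14.13, 14.14, 14.11, 14.02 and 14.08 in controls (14.10 ± 0.05, n = 5), and 14.07, 13.88 and 13.98 at 994.6 mg/kg (13.98 ± 0.09, n = 3). That is a difference of -0.12 ± 0.08 (95% interval -0.28 to 0.04) with an adjusted p of 0.521 in limma. The ranges overlapped, with 2 of the 3 treated rats below all controls.

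Cdo1 was lowest at 497.3 mg/kg, where the rats read 13.82, 13.90 and 13.77 (13.83 ± 0.07), all below every control. The difference there was -0.27 ± 0.08 with an adjusted p of 0.170. Across all 6 dose groups its slope was -0.042 ± 0.014 per dose step (95% interval -0.071 to -0.014), with an adjusted p of 0.0937, whereas 1182 probe sets (3.81%) had a slope past the threshold. Means at 62.3, 124.5 and 248.6 mg/kg were 14.10 ± 0.11, 14.06 ± 0.08 and 13.97 ± 0.15.

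Csad, the decarboxylase that follows CDO1, read 12.61, 12.46, 12.33, 12.11 and 12.36 in controls (12.37 ± 0.18) and 12.46, 12.45 and 12.18 at 994.6 mg/kg (12.37 ± 0.16). The difference was -0.01 ± 0.11, and its 95% interval of -0.23 to 0.22 bounds what these rats could hide (adjusted p = 0.984 in limma). The groups overlapped fully. The Csad means moved without an order in dose, with 12.42 ± 0.04 at 62.3, 12.29 ± 0.24 at 124.5, 12.52 ± 0.06 at 248.6 and 12.19 ± 0.03 at 497.3 mg/kg. The 3 rats at 497.3 mg/kg were all below the 3 at 248.6 mg/kg, a difference of -0.33 ± 0.12 that did not pass (adjusted p = 0.9998).

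Neither conjugating enzyme had a difference past the threshold at any dose. At 994.6 mg/kg the difference of Baat was the larger in size, and at 124.5, 248.6 and 497.3 mg/kg that of Slc27a5 was. Baat, which attaches taurine or glycine to the activated bile acid, read 13.66, 13.56, 13.53, 13.42 and 13.62 in controls (13.56 ± 0.09) and 13.06, 13.45 and 13.37 at 994.6 mg/kg (13.29 ± 0.21). The difference was -0.26 ± 0.11 (95% interval -0.49 to -0.04) with an adjusted p of 0.224 in limma, so it was not called. Replicate 1 at 994.6 mg/kg was the lowest rat of the study for Baat, and without it the difference was -0.15. The means at the doses in between, 13.49, 13.46, 13.48 and 13.43 from 62.3 to 497.3 mg/kg, lay between those ends, and the slope over all doses was -0.042 (95% interval -0.077 to -0.0072) with an adjusted p of 0.189.

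Slc27a5, which activates bile acids for BAAT, read between 13.23 and 13.39 in the 5 controls (13.30 ± 0.06) and 13.36, 13.32 and 13.19 at 994.6 mg/kg (13.29 ± 0.09). The difference was -0.01 ± 0.08 (95% interval -0.19 to 0.16, adjusted p = 0.962 in limma). Its lowest mean was at 124.5 mg/kg, 13.11 ± 0.19, with a difference of -0.19 ± 0.08 that did not pass (adjusted p = 0.971). At 497.3 mg/kg the mean was 13.14 ± 0.06 and all 3 rats lay below the controls, while at 994.6 mg/kg only 1 did. The difference at 497.3 mg/kg was -0.16 ± 0.08 and did not pass (adjusted p = 0.511 in limma). The signs of the Slc27a5 and Csad differences at 994.6 mg/kg turned when each array was centred on its median.

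**Figure D2:**
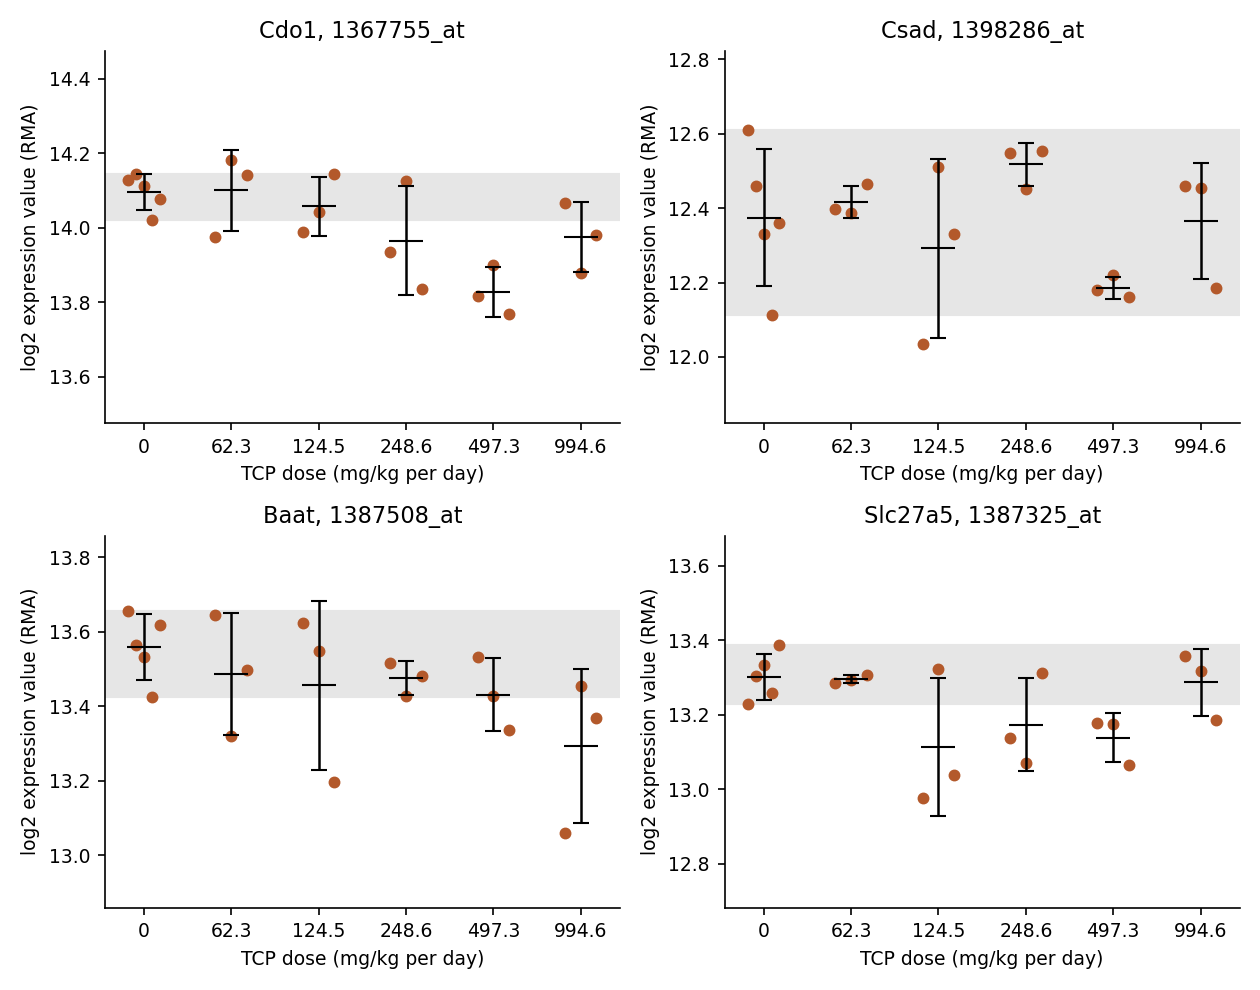
Log2 RMA values of Cdo1, Csad, Baat and Slc27a5 (y axes, each panel with its own range of levels) against TCP dose in mg/kg per day, with 1 point per rat, group mean and SD as bars, and the control range shaded. Cdo1 and Slc27a5 lie below the shaded range in all 3 rats at 497.3 mg/kg, and at 994.6 mg/kg each of the 4 genes has at least 1 rat within it. Neither difference at 497.3 mg/kg passed the threshold, and the share of all probe sets that separate so was not counted.

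Around these genes, a list of taurine and sulfur amino acid genes had 23 measured members besides Slc6a6, Cdo1 and Csad. At 994.6 mg/kg none was higher and 3 were lower past the threshold, against 1.36% of all probe sets higher and 1.24% lower, and the median difference was -0.16 against -0.01 over all probe sets. The 3 were Cbs, which condenses homocysteine with serine on the way to cysteine, Ahcy, which releases homocysteine, and Gclc, the catalytic subunit that commits cysteine to glutathione. Cbs fell by 0.65 ± 0.12 on the log2 scale (adjusted p = 0.00513 in limma), from 11.70 to 12.02 in controls to 10.92 to 11.47. At 497.3 mg/kg the Cbs difference was -0.58 (adjusted p = 0.0340 in limma). Cbs was the only 1 of the 23 called there, against 0.312% of all probe sets.

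Gclc fell by 0.73 ± 0.16 (adjusted p = 0.0196) on its brighter probe set, and its other probe set gave -0.37 with an adjusted p of 0.333. Ahcy fell by 0.27 ± 0.07 (adjusted p = 0.0399). Without replicate 1 at 994.6 mg/kg none of these 3 calls was kept, with -0.51 for Cbs (adjusted p = 0.0551), -0.58 for Gclc (adjusted p = 0.176) and -0.24 for Ahcy (adjusted p = 0.216). The red blood cell and GAPDH measures given further on moved with dose as well.

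Transporters of that list that were not called include Slc6a13, Slc7a11, Slc36a1 and Slc16a6, of which the first 2 are described, picked after their values were seen. Slc6a13, a transporter of the same family as Slc6a6 that also carries taurine, read 10.49 to 10.88 in controls and 10.12 to 10.23 at 994.6 mg/kg. The difference was -0.51 ± 0.14 with an adjusted p of 0.0583. Slc7a11, the cystine importer, was 0.71 ± 0.37 higher on average with an adjusted p of 0.384, and its 3 treated rats spread from 5.80 to 7.81. For Ado, which makes hypotaurine from cysteamine, the difference was 0.06 ± 0.11. For Fmo1, which oxidises hypotaurine to taurine, it was -0.16 ± 0.19, and neither passed (adjusted p = 0.866 and 0.765 in limma).

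A list of bile acid conjugation and peroxisomal side chain genes had 8 measured members besides Baat and Slc27a5. None was called at 994.6 mg/kg, where 2.6% of all probe sets were. The largest differences were those of Amacr, the racemase that prepares bile acid intermediates for side chain shortening, at 0.46 ± 0.16 (adjusted p = 0.144), and Abcd3, a peroxisomal membrane transporter, at -0.37 ± 0.11 (adjusted p = 0.0861). Abcd3 passed in the slope over all doses, with an adjusted p of 0.0317. The median difference of the 8 was 0.06.

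Genes of bile acid synthesis and transport, the steps before and after conjugation, gave 3 higher and 1 lower of 19 measured at 994.6 mg/kg, beside 1.36% and 1.24% of all probe sets. Their median difference was 0.01, against -0.01 over all probe sets. Abcc3, a basolateral exporter of conjugated compounds, rose from 6.36 to 6.92 in controls to 9.31 to 9.89, a difference of 2.86 ± 0.24 (adjusted p = 3e-06 in limma). Cyp7a1, which catalyses the first and limiting step from cholesterol to bile acids, rose by 2.23 ± 0.32 (adjusted p = 0.000746) from 9.33 to 10.73 in controls to 12.13 to 12.62. No treated rat overlapped a control for either gene.

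Cyp8b1, the sterol hydroxylase needed for cholic acid, rose by 0.69 ± 0.17 (adjusted p = 0.0376), and Abcb4, the canalicular phospholipid floppase, fell by 0.58 ± 0.13 (adjusted p = 0.0232). These last 2 calls were lost under several alternatives, and without replicate 1 at 994.6 mg/kg the Abcb4 difference was -0.34. The sinusoidal bile salt importer Slc10a1 had a difference of -0.24 ± 0.09 (adjusted p = 0.175). The canalicular bile salt exporter Abcb11 had one of 0.02 ± 0.08 (adjusted p = 0.948).

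**Figure D3:**
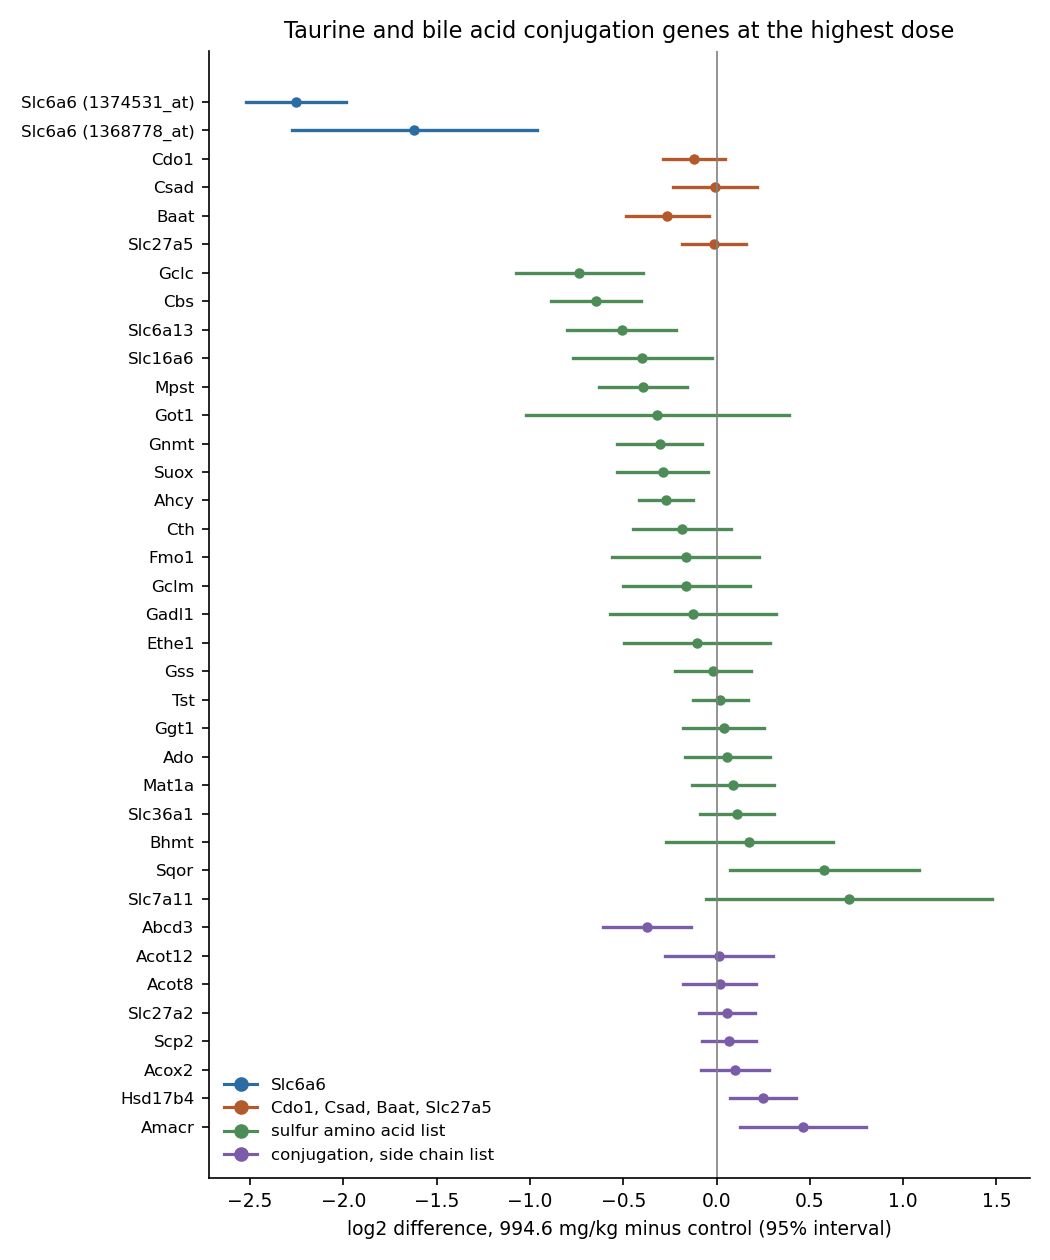
Log2 differences at 994.6 mg/kg minus control (x axis) with 95% intervals from limma for the probe sets of the 5 genes and for 1 probe set of each gene in the sulfur amino acid list and in the conjugation and side chain list (y axis). The Slc6a6 points, chosen for this difference, lie at -2.25 and -1.62, and the lowest gene of the lists, Gclc, lies at -0.73.

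Because taurine is an osmolyte, a list of osmolyte transport and cell volume genes was also read, with 9 of its 10 members measured. None was called at 994.6 mg/kg on the probe set used for the count, against 2.6% of all probe sets. Of the 9, 8 had negative differences, and the median was -0.14, against -0.01 over all probe sets. From 62.3 to 497.3 mg/kg 6, 4, 8 and 8 were negative, with a median of -0.20 at 497.3 mg/kg. The share of negative differences over all probe sets was not counted. At 994.6 mg/kg Nfat5 itself had -0.59 ± 0.21 (adjusted p = 0.147), while its other probe set had -0.44 and passed (adjusted p = 0.0425 in limma). Sgk1, a kinase known to be induced by changes in cell volume, had -0.49 ± 0.33 (adjusted p = 0.540), which became -0.91 without replicate 1 at 994.6 mg/kg and -0.16 without replicate 3.

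The genes whose representative probe set was most like Slc6a6 1374531_at across the 20 arrays were found by Pearson r over 13982 genes. They were Htra1 (0.92), Tmem37 (0.88), the gene of heparin cofactor II Serpind1 (0.88), the cytochrome P450 gene Cyp4f6 (0.87), the nuclear envelope gene Syne1 (0.86), Ngef (0.85), the chromatin remodeller Chd9 (0.85) and C2cd2 (0.85). Most opposite were the carboxylesterase Ces2c (-0.92), the sphingosine phosphate lyase Sgpl1 (-0.89), the amyloid precursor App (-0.89) and the tyrosine phosphatase Ptpn3 (-0.88). These r values are a description. They mostly follow the dose groups, since after subtracting group means r ran from -0.14 for Syne1 to 0.38 for Htra1 among the 8 alike.

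Htra1, a secreted serine protease, had means of 10.40 in controls and 10.38, 10.29, 10.33, 10.20 and 9.96 from the lowest to the highest dose. Like Slc6a6 it stood higher at 248.6 than at 124.5 mg/kg, as did Tmem37, Cyp4f6, Ngef, Chd9 and C2cd2, but not Serpind1 or Syne1. All were picked for likeness over these same arrays, so a shared pattern is no test. The shift of Htra1 at the highest dose was far smaller than that of Slc6a6. Within the 12 rats of 62.3 to 497.3 mg/kg its r with Slc6a6 was 0.82, against 0.81 for Tmem37 and 0.45 for C2cd2. With the second Slc6a6 probe set the r of Htra1 was 0.63. The other genes of the taurine pathway were further down the order, Baat at place 678 with r 0.54, Cdo1 at 969 with 0.49, Csad at 3733 with 0.22 and Slc27a5 at 3822 with 0.21.

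**Figure D4:**
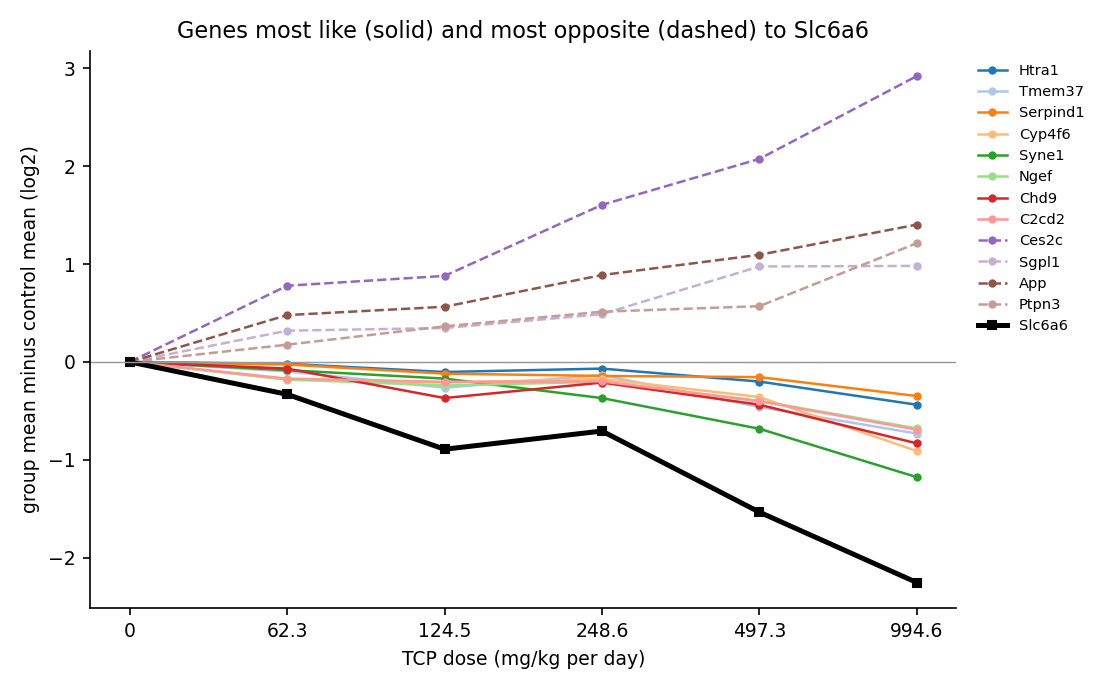
Group mean minus control mean on the log2 scale (y axis) against TCP dose in mg/kg per day (x axis) for Slc6a6 1374531_at (black squares), the 8 genes most like it (solid lines) and the 4 most opposite (dashed lines), chosen for these patterns. Slc6a6 ends at -2.25, the 8 alike all end below 0 with smaller changes, and the 4 opposite genes all end above it.

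The arrays had medians of 6.31 to 6.41. Replicate 1 at 994.6 mg/kg stood apart on the first principal component (42.7, against -18.9 to 20.4 for the other 19 arrays), and without it the Slc6a6 differences at 994.6 mg/kg were -2.25 on 1374531_at and -1.84 on 1368778_at. The difference between 3' and 5' GAPDH control probe sets, which rises as RNA breaks down, was 1.13 to 1.56 in controls and 0.612 to 1.11 in all treated rats but replicate 2 at 124.5 mg/kg, where it was 2.58. With it as a covariate the differences were -2.33 ± 0.14 and -1.74 ± 0.37 (SE). With it as a covariate but without that array they were -2.41 ± 0.27 and -2.76 ± 0.61. Leaving out that array alone, with no covariate, the 124.5 mg/kg differences were -0.82 and -0.94. With the covariate and without that array, the 1368778_at differences from 62.3 to 497.3 mg/kg were -1.48 ± 0.45, -2.0 ± 0.61, -1.42 ± 0.43 and -2.82 ± 0.55. Each was over 1.5 times that without the covariate, with a larger SE. Those of 1374531_at were -0.43 ± 0.20, -0.97 ± 0.26, -0.80 ± 0.19 and -1.66 ± 0.24. Without that array the GAPDH ranges of controls and treated rats do not overlap, so covariate and treatment can hardly be told apart in these fits.

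Of the cell marker lists, 7 measured hepatocyte markers gave no call at 994.6 mg/kg, where 2.6% of all probe sets were called. All 7 had negative differences there. In the trend over all doses 1 of the 7 was called lower, where 3.81% of all probe sets were called. The mean level of the 7 was 14.33 to 14.39 in controls and 14.19 to 14.30 at 994.6 mg/kg, which matches the labelled tissue. All 3 measured red blood cell genes were lower there, with a mean level of 9.25 to 9.45 in controls against 7.39 to 8.51, and the mean difference was already -0.26 at 62.3 mg/kg. The mean level of 4 cholangiocyte genes was highest at 497.3 mg/kg, 0.73 above control (7.07 to 7.96, against 6.64 to 7.06), and 0.30 above it at 994.6 mg/kg. The dose of 497.3 mg/kg was also that of the lowest 1368778_at, Cdo1 and Csad means. The 1374531_at and Baat means were lowest at 994.6 mg/kg, and that of Slc27a5 at 124.5 mg/kg. Calls at 994.6 mg/kg outside the hepatocyte and red blood cell lists were 1 of 4 cholangiocyte genes (Epcam, higher), 1 of 6 stellate cell genes (Rgs5, higher) and 1 of 3 pancreas genes (Cela1, lower). The macrophage, endothelial, lymphocyte, neutrophil, and muscle and fat lists had none. All of these counts stand beside the 2.6% of all probe sets called at that dose. The part of these measures in the Slc6a6 result was not tested beyond the covariate and left-out arrays given above.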

How the data were processed

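Liver RNA of 20 rats was measured on 1 Affymetrix array each. The authors deposited log2 values for 31099 probe sets, with RMA as the summary method per the submitters' processing notes. The software version and the set of arrays normalized jointly are not stated there. The 57 control probe sets were left out of the tests. Probe sets were named from GEO's platform annotation with symbols updated by gene ID: 20826 had 1 symbol, 436 several and 9780 none.

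Groups came from the sample titles. limma 3.58.1 in R 4.3.3 was fitted over all 31042 probe sets with 1 mean per group and no other covariate (lmFit, contrasts.fit, eBayes), with Benjamini-Hochberg adjustment over all of them and a threshold of 0.05. The trend regressed all 20 arrays on dose step, and the Slc6a6 slope the 12 arrays of 62.3 to 497.3 mg/kg. The fit was tested on simulated data. The number of arrays limits the precision. Replicate numbers in the titles were not used as a block in the main fits, and correlations between same-numbered rats are given further on. No batch is named in the labels.

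The genes and lists were chosen with earlier results of these data known. Named beside the 5 genes were up to 4 called members of each list by size at 994.6 mg/kg, or the 2 largest where none was called, and the 8 genes most like and 4 most opposite to Slc6a6. Where a list gene has several probe sets, that of the highest mean was used. Slc6a13, Slc7a11, Ado, Fmo1, Slc10a1 and Abcb11 were named in addition for their roles, after their values were seen. Alternatives were other normalizations, filters, limma settings, RNA quality covariates, pairing and leaving out each array.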

Additional observations from a re-analysis of the deposited data

How the results depend on the processing

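Of 1200 alternative values, 1037 were labelled as the same, 57 lost a call, 6 gained one, 36 changed sign and 64 moved further. For tested values, the same means that direction and side of the threshold were kept. For untested differences it means a move by less than the replicate spread. For counts of calls it means staying within a fixed ratio of the main count, so a count could gain or lose calls and still be labelled the same. No Slc6a6 difference from control changed sign in any alternative. The Slc6a6 1374531_at slope over 62.3 to 497.3 mg/kg ran from -0.36 to -0.30 per dose step, and was -0.24 per 100 mg/kg with dose in mg/kg (adjusted p = 0.0516). It gained a call as a contrast of group means (-0.34) and in 1 of its 12 fits without 1 array, which ran from -0.36 to -0.30. Array weights gave Cdo1 a call at 994.6 mg/kg (-0.20, adjusted p = 0.0271) and in the trend (-0.0458, adjusted p = 0.0365).

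The sign changes were nearly all of values close to 0, and the cause was not tested. Slc27a5 at 994.6 mg/kg was 0.00456 with median centring, 0.000162 with array weights, 0.0894 with the GAPDH covariate and 0.00297 with that covariate and without the array of the largest GAPDH difference, and ran from -0.0495 to 0.0360 leaving out 1 array. Its trend was 0.00737 in the last of those fits. At 62.3 mg/kg it was 0.00127, 0.00677 (replicate block), 0.0588 and 0.00443, and -0.0252 to 0.0145 leaving out 1 array. Csad at 994.6 mg/kg was 0.0105 with median centring, 0.0502 with array weights and 0.0953 with the GAPDH covariate, and -0.0744 to 0.0819 leaving out 1 array. Its trend was 0.000368 and 0.00603 with the covariate, with and without that array. Csad at 62.3 mg/kg was -0.0504 with the replicate block. Cdo1 at 62.3 mg/kg was -0.00752 with quantile normalization, -0.0183 with array weights and -0.0273 with the replicate block. Leaving out 1 array, values ran from -0.0375 to 0.0663 for Cdo1, -0.0235 to 0.101 for Csad and -0.151 to 0.0125 for Baat at 62.3 mg/kg, from -0.186 to 0.0270 for Baat and -0.191 to 0.0465 for Csad at 124.5 mg/kg, and on Slc6a6 1368778_at from -0.46 to 0.22 for 124.5 minus 62.3 mg/kg and -0.18 to 0.43 for 248.6 minus 124.5 mg/kg. Sgk1 was 0.44 in the GAPDH fit without the array.

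The count of the 6 probe sets called at 124.5 mg/kg went from 1 to 0 with quantile normalization, array weights, a fit of only both groups, the replicate block and the GAPDH fit without the array, and was 0 to 1 leaving out 1 array. At 248.6 mg/kg it went from 0 to 1 with 1 probe set per gene, with trend and robust set and with array weights (0 to 1 leaving out 1 array). At 497.3 mg/kg it went from 2 to 1 with 1 probe set per gene, the replicate block and the GAPDH fit without the array (1 to 2 leaving out 1 array), and at 994.6 mg/kg from 2 to 1 with the first and last of these and to 3 with array weights, which added Cdo1. With 1 probe set per gene Slc6a6 has only 1 to count.

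Over the array, 807 probe sets were called at 994.6 mg/kg, against 415 with the replicate block, 4224 with array weights, 466 with the GAPDH covariate and 3 with it and without the array. Deviations of same-numbered rats from their group means had correlations of -0.42 to 0.43 (median 0.06), with 15 of 45 pairs over 0.1. For differently numbered rats they were -0.38 to 0.37 (median -0.04), with 21 of 90 over 0.1. Whether the numbers mark a shared step of handling was not tested.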

Other observations

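Glycine is the other amino acid that BAAT joins to bile acids. Of 11 genes of glycine supply and use, 1 was called at 994.6 mg/kg, where 2.6% of all probe sets were: Shmt1, the cytosolic enzyme that converts serine and glycine into each other, rose by 0.30 ± 0.07 on the log2 scale (adjusted p = 0.0334 in limma). Its controls read 10.78 to 10.94 and the 3 treated rats 11.10 to 11.20, so the ranges did not overlap. The call was lost in 10 of the alternatives run, and the median difference of the 11 genes was 0.04.

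Of 13 other measured members of the solute carrier family 6, to which Slc6a6 belongs, 1 was called at 994.6 mg/kg, against the same 2.6%: Slc6a5, a neuronal glycine transporter, was 0.34 ± 0.09 higher (adjusted p = 0.0448), with controls at 5.25 to 5.56 and treated rats at 5.63 to 5.81. The Slc6a5 call was lost in 11 of the 17 alternatives run, among them the limma fit without replicate 1 at 994.6 mg/kg (adjusted p = 0.120). Slc6a5 lay 0.18 below the controls on average at 497.3 mg/kg (-0.18 ± 0.09, adjusted p = 0.502). None of the 13 was lower past the threshold, and their median difference was -0.05.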
